A study of Homo sapiens with 12 samples.

Results

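The metallothioneins described here are the 6 human genes MT1E, MT1F, MT1G, MT1H, MT1X and MT2A. They were picked out by gene symbol, with earlier results of these data known, and the array platform assigned 10 of its 22283 probe sets to them. A probe set is the group of short array probes that is summarised into 1 signal for a transcript. The study asked how nuclear transcription differs between human cells without mitochondrial DNA (ρ°, labelled rho0) and their parental cells (ρ+). The established cancer cell lines were A549, a lung adenocarcinoma line, and the thymidine kinase-negative osteosarcoma line 143BTK-, and RNA of each of the 4 groups was hybridised to 3 Affymetrix human genome arrays named A, B and C. The A549 ρ° and 143BTK- ρ° cells had been kept in 50 ng/ml ethidium bromide, which blocks replication of mitochondrial DNA, for 3 weeks, and were pooled afterwards without picking clones. The A549 ρ+ and 143BTK- ρ+ cells were the untreated parents. All 4 groups grew in high-glucose medium with 10% serum, 1 mM pyruvate and 50 µg/ml uridine, on which cells without respiration can live. The ethidium bromide had been withdrawn before RNA was taken, and its past use and the loss of mitochondrial DNA cannot be told apart in this design.

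Metallothioneins are very small, cysteine-rich proteins that bind zinc and copper ions, and also cadmium, in clusters held by the sulphur of their cysteines. They buffer free zinc, hold toxic metals and react with oxidants. The genes of the family lie side by side on the long arm of chromosome 16, and most are switched on by the zinc-sensing transcription factor MTF1, which binds short metal response elements in their promoters. Glucocorticoids and cell stress also induce several of them, MT2A in particular. MT2A and MT1X are expressed in most human tissues, while MT1 genes such as MT1E, MT1G and MT1H vary more between cell types.

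To show what the members share upstream of the coding sequence, the promoters of those found in the RefSeq promoter table (GRCh38.p14) are printed as the 250 bases before the transcription start, on the plus strand of chromosome 16. The table held 3 of the 6 members, MT2A, MT1H and MT1X. Capitals mark every match to the metal response element core, spelled TGCACNC or TGCGCNC and searched on both strands, so that a match on the minus strand reads as its reverse complement. The window of MT2A was chr16:56608334-56608583, that of MT1H chr16:56669564-56669813 and that of MT1X chr16:56682220-56682469.
MT2A: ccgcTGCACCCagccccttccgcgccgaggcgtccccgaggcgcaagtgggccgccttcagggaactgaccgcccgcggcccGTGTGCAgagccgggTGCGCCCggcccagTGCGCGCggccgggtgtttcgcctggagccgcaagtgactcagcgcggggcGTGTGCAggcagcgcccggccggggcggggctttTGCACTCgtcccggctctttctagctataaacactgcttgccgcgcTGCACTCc
MT1H: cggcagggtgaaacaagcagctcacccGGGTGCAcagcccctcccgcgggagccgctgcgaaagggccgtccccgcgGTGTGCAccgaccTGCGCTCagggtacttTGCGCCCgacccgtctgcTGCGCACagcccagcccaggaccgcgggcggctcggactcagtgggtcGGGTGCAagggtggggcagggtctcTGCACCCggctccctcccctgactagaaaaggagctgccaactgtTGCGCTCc
MT1X: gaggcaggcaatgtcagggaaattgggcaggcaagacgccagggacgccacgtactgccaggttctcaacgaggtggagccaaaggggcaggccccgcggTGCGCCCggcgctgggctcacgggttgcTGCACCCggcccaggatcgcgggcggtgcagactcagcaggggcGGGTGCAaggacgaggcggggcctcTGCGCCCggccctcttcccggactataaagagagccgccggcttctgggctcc

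The 250 bases held 7 cores in MT2A, 8 in MT1H and 4 in MT1X. Of all 35114 promoter windows of the same length in the table, 24.83% held at least 1 core and 0.3702% held at least 4. The share with at least 7 was 0.03133% and the share with at least 8 was 0.01709%, so that all of these members stood in the upper tail of core number. MT1H and MT1X had cores at the same distances from the start, at -78 to -72 on the minus strand and at -53 to -47 on the plus strand. MT2A had its nearest counterparts at -88 to -82 and at -54 to -48. MT1B, a metallothionein outside the members, had its own at -79 to -73 and at -53 to -47, on the same strands. MT2A and MT1H each had a further core at -8 to -2. The GC box GGGCGG, the core of the Sp1 site, was searched on both strands and occurred 2 times in MT2A, 1 time in MT1H and 2 times in MT1X, against a match in 42.64% of all windows. In MT1X the GC box at -82 to -77 overlapped the core at -78 to -72. The TATA box TATAAA on the plus strand occurred 1 time in MT2A and in MT1X and in 6.804% of all windows, and these letters were not in the MT1H window. For comparison, the promoters of the metallothioneins MT1B and MT4 held 3 cores each. That of SLC30A1, the zinc exporter of the plasma membrane and another known MTF1 target, held 1, and that of MTF1 itself held 0. A match describes these letters only, and binding was not measured.

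**Figure D1:**
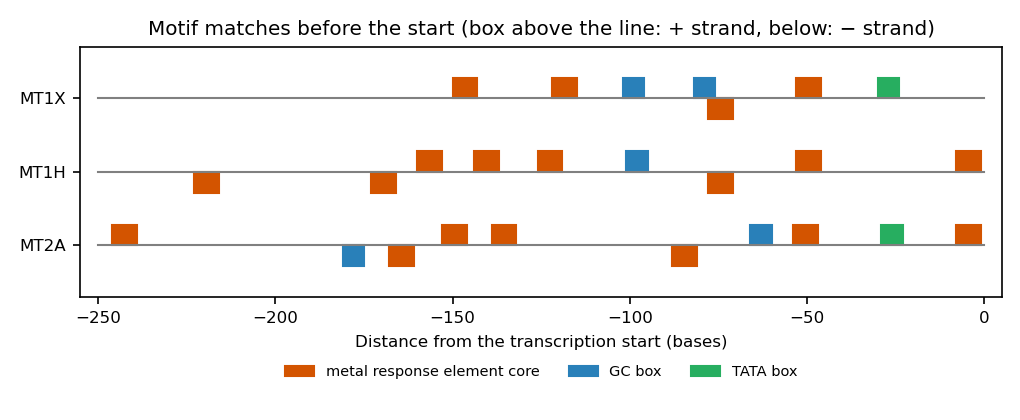
Matches to the metal response element core, the GC box and the TATA box in the 250 bases before the transcription start of MT1X, MT1H and MT2A (horizontal axis, distance from the start in bases; boxes above the line are on the plus strand and those below it on the minus strand). MT1H carried 8 cores, MT2A 7 and MT1X 4, and MT1H and MT1X had a pair of cores at the same distances.

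The signals ranged between 0.1 and 14101.7 in A549 and between 0.1 and 12270.4 in 143BTK-, with medians of 31.4 and 27.6 in arbitrary units, and arrays of 1 group correlated with r between 0.897 and 0.948 over log2 signals. The labelled cell types were checked by their markers. The keratins KRT7, KRT8 and KRT18 were at mean signals between 1422 and 8228 in the A549 groups, the epithelial adhesion gene EPCAM was below the filter there, and SPARC had mean signals of 734 in ρ° and 595 in ρ+ 143BTK- cells and was below the filter in A549. Other markers did not separate the lines. VIM was at 3303 or more in all 4 groups, KRT18 was at 3525 in ρ° and 4570 in ρ+ 143BTK- cells, COL1A1 lay between 75.7 and 87.8 in all groups, and COL1A2 and the osteoblast genes RUNX2 and ALPL were below the filter in 143BTK-. EPCAM passed the filter in 143BTK-, with mean signals of 35.7 in ρ° and 33.6 in ρ+ cells. The leukocyte gene PTPRC had mean signals between 2.07 and 6.10 in the 4 groups and was below the filter, as was LYZ. Other leukocyte genes were dim but passed it. CD3E passed in both lines, with means between 23.0 and 33.7, and CD14 passed in A549, with 38.7 in ρ° and 59.9 in ρ+ cells. In A549, 4 of 6 measured epithelial markers fell in the ρ° cells (median log2 change -1.14 over the 6), against 5.2% of all probe sets called lower. Among them was KRT19, with mean signals of 3.53 in ρ° and 408.7 in ρ+. The part of these markers in the metallothionein values was not tested. In bulk RNA, fewer cells that express a gene and less of its RNA per cell cannot be told apart.

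The 10 probe sets were 2 each for MT1E, MT1F, MT1G and MT1X and 1 each for MT1H and MT2A. For 9 of them the name ends in _x_at, by which Affymetrix marks probes that also match other transcripts. Which transcripts these are was not examined. They may be close relatives of the family, so a value may hold unknown parts of such relatives beside the named gene. The tenth, MT1G 210472_at, carries no such mark. It was the only member that did not pass the filter on low mean signal, in either line. Its signals were 12.1, 29.9 and 26.3 in A549 ρ° cells, against 8.7, 13.2 and 4.8 in A549 ρ+ cells. They were 7.1, 2.1 and 6.5 in 143BTK- ρ° cells, against 11.3, 6.8 and 11.3 in 143BTK- ρ+ cells. The mean was higher in ρ° than in ρ+ cells in A549 (22.8 against 8.9) and lower in 143BTK- (5.23 against 9.8). The groups overlapped in both lines at these low signals, and this probe set was not tested. The probe set listed by the platform as MT1X 204326_x_at is filed there under the accession of MT1L, a transcribed pseudogene of the family, so its gene is uncertain. The remaining 9 passed the filter in both lines, and the counts given below are over these 9.

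In A549 cells, metallothionein signals were on average lower in ρ° than in ρ+ cells in every probe set tested. All 9 probe sets had a negative log2 change, against 50.3% of all probe sets tested, and their median was -0.61, against -0.003 over all. MT2A, MT1X (204326_x_at) and MT1F (217165_x_at) fell past the threshold of the test, to between 52.1% and 59.5% of the ρ+ level. The sets for MT1G, MT1H, MT1E and the other sets for MT1X and MT1F were lower by smaller or less certain amounts.

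MT2A, the MT2 gene of the family, had signals of 2081, 2408 and 3330 in A549 ρ° cells, against 4479, 4003 and 4408 in A549 ρ+ cells. Every ρ° array lay below every ρ+ array. The log2 change was -0.75 (standard error, SE, 0.17; limma adjusted p = 0.0231, n = 3 arrays each), a 1.68-fold lower level. MT1X was read by 2 probe sets. The first, 204326_x_at, had signals of 337, 408 and 515 in ρ° cells, against 941, 787 and 639 in ρ+ cells (log2 change -0.91, SE 0.21, limma adjusted p = 0.0242). The second, 208581_x_at, whose accession is that of MT1X, had 837, 1184 and 1594 in ρ° cells, against 2604, 1655 and 1761 in ρ+ cells. The groups of both sets were separate, but in the second the ρ° C array came close to the ρ+ B array and the change of -0.76 missed the threshold (SE 0.25, limma adjusted p = 0.0785). MT1F 217165_x_at had signals of 134, 192 and 233 in ρ° cells, against 315, 315 and 424 in ρ+ cells. It carried the most negative change of the family (log2 -0.94, SE 0.24, limma adjusted p = 0.0356). The other MT1F set, 213629_x_at, had 60.1, 94.4 and 91.7 in ρ° cells, against 99.2, 95.7 and 139.9 in ρ+ cells. Its groups were separate by a small margin and its change of -0.45 did not pass (limma adjusted p = 0.311).

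MT1G 204745_x_at had narrow groups in A549. Its signals were 274, 323 and 294 in ρ° cells, against 489, 461 and 414 in ρ+ cells. The groups were separate, and the change of -0.61 just missed the threshold (SE 0.18, limma adjusted p = 0.0503). MT1H had 944, 1011 and 1329 in ρ° cells, against 1303, 1569 and 1543 in ρ+ cells, with the ρ° C array above the ρ+ A array (log2 change -0.44, limma adjusted p = 0.133). MT1E 216336_x_at had 132, 173 and 157 in ρ° cells, against 214, 209 and 201 in ρ+ cells. It was separate with a change of -0.44 (limma adjusted p = 0.179), while MT1E 212859_x_at, with 95.5, 104.7 and 94.0 in ρ° cells and 168, 139 and 88.8 in ρ+ cells, overlapped because the ρ+ C array was its lowest.

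Of the 9 probe sets in A549, 3 fell at an adjusted p under 0.05, against 5.2% of all probe sets that were called lower and 5.66% that were called higher, and 0 members rose. Without adjustment 7 of the 9 were lower at p under 0.05 (background 13.4%), and in 7 of the 9 all ρ° arrays lay below all ρ+ arrays (background 16.1%). With 1 probe set taken per gene, the brightest, 2 of the 6 genes fell, MT2A and MT1F. Related probe sets were read on the same arrays and may share probes, so these counts are not of independent measurements. The ρ° A array was the lowest ρ° array in 8 of 9 sets, and the ρ+ A array the highest ρ+ array in 6 of 9. The number called was 0 when the A or B array of either state was left out, 4 without ρ° C and 3 without ρ+ C, while the median change stayed between -0.68 and -0.52.

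**Figure D2:**
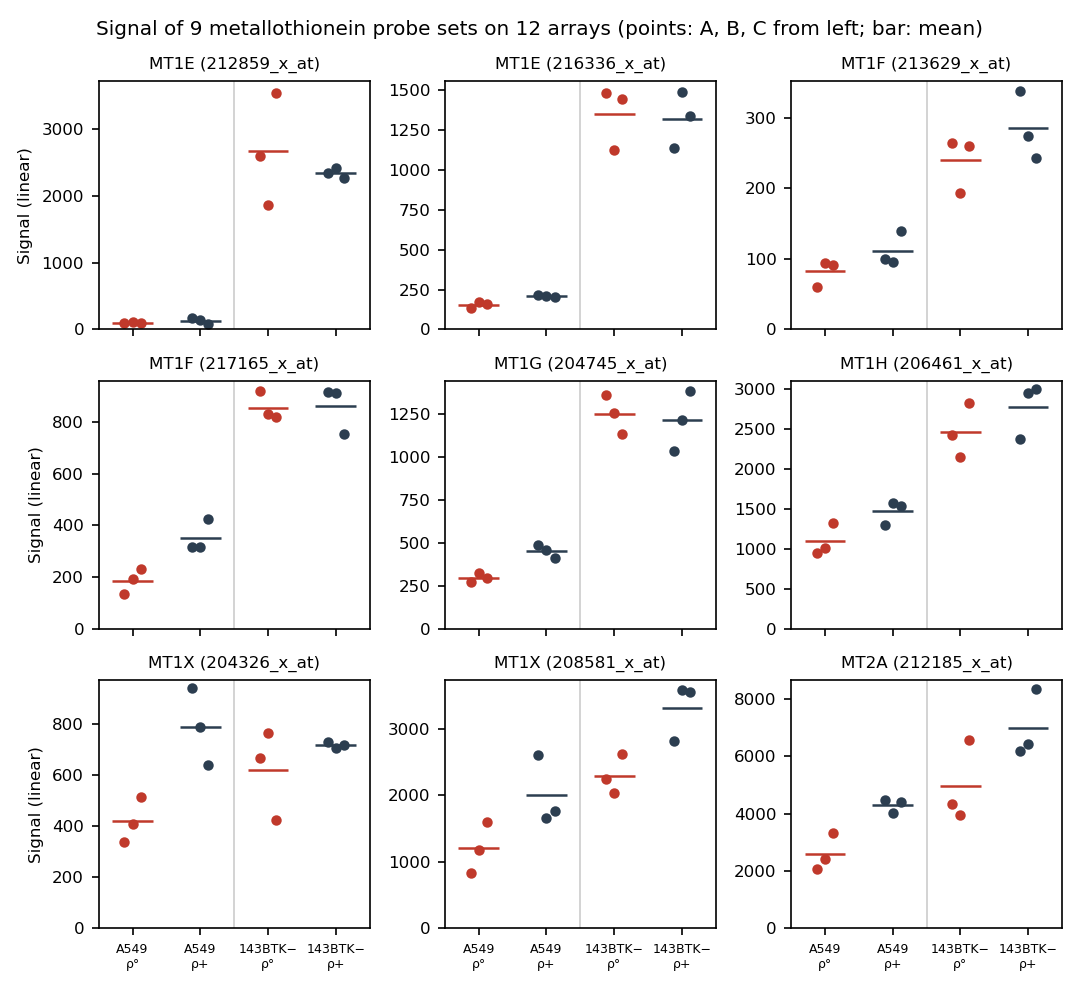
Signal (vertical axis, arbitrary linear units, starting at 0) of the 9 metallothionein probe sets that passed the filter, with 1 panel for each. Points are the arrays A, B and C from left to right and bars are group means for A549 ρ°, A549 ρ+, 143BTK- ρ° and 143BTK- ρ+ cells. In A549 the ρ° arrays lay below the ρ+ arrays in 7 panels, in 143BTK- only in that of MT1X 208581_x_at.

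In 143BTK- cells the changes of the family had no common direction. Of the 9 probe sets, 6 had a negative log2 change (background 50.3%), and the median was -0.17, against -0.002 over all. None was called at an adjusted p under 0.05 with limma, where 0% of all probe sets passed in either direction, and 2 of the 9 were lower at an unadjusted p under 0.05 (background 4.6%). Those 2 were MT2A and MT1X 208581_x_at.

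MT2A had signals of 4334, 3957 and 6554 in 143BTK- ρ° cells, against 6171, 6435 and 8329 in 143BTK- ρ+ cells. The ρ° C array lay above both the ρ+ A and the ρ+ B array, so the groups overlapped (log2 change -0.52, SE 0.20, limma adjusted p = 0.568). MT1X 208581_x_at had 2239, 2028 and 2614 in ρ° cells, against 2822, 3589 and 3544 in ρ+ cells. It was the only member with separate groups in this line, against 7.47% of all probe sets with all ρ° arrays below all ρ+ arrays (log2 change -0.53, SE 0.16, limma adjusted p = 0.489). The other MT1X set, 204326_x_at, had 666, 764 and 425 in ρ° cells, against 731, 705 and 720 in ρ+ cells. Only its ρ° A and ρ° C arrays lay below all ρ+ arrays, ρ° C by the wider margin.

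MT1F 217165_x_at had signals of 919, 830 and 818 in ρ° cells, against 916, 913 and 752 in ρ+ cells, a log2 change of -0.004 (95% interval -0.40 to 0.39). MT1G 204745_x_at had 1361, 1255 and 1133 in ρ° cells, against 1036, 1216 and 1386 in ρ+ cells, a change of 0.05 (95% interval -0.35 to 0.45). MT1E 212859_x_at was more variable in the ρ° cells, with 2602, 1869 and 3544, against 2345, 2424 and 2267 in ρ+ cells (change 0.14, 95% interval -0.35 to 0.63). MT1E 216336_x_at, with a change of 0.03, MT1H, with -0.17, and MT1F 213629_x_at, with -0.25, had overlapping groups and limma adjusted p of 0.807 or more.

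The mean of the 2 lines' changes was also tested, over the probe sets that passed the filter in both. A large change in 1 line can pass this test, so a call does not show that both lines changed. MT2A (mean log2 change -0.63, SE 0.14, limma adjusted p = 0.0280) and MT1X 208581_x_at (-0.64, SE 0.16, limma adjusted p = 0.0418) fell. These were 2 of the 9, against 1.73% of all probe sets called lower and 1.97% called higher. MT1X 204326_x_at followed with -0.59 (limma adjusted p = 0.0665), and 6 of the 9 were lower at an unadjusted p under 0.05 (background 10.1%). An exact two-sided permutation test within the lines, over 400 arrangements of the arrays, gave p = 0.005 for MT1X 208581_x_at, the smallest value that this design allows. The same exact permutation test gave p = 0.015 for MT2A, p = 0.025 for MT1X 204326_x_at and p = 0.04 for MT1H, all unadjusted. Within 1 line the smallest value of the same exact permutation test is 0.1. In the mean change the number of members called with 1 array left out varied between 0 and 3. It was 0 without any 1 of the A and B arrays of A549 in either state and without 143BTK- ρ° A or ρ+ B, 1 without 143BTK- ρ° B, ρ+ A or ρ+ C, and 3 without A549 ρ° C.

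The change in A549 was more negative than that in 143BTK- for all 9 probe sets. The median difference was -0.48, against 0.009 over all probe sets, but no single difference passed the test. The number called was 0 of 9 with limma (background 1.95% in either direction), and 2 of 9 were negative at an unadjusted p under 0.05 (background 7.76%). Those were MT1F 217165_x_at (difference in log2 change, A549 minus 143BTK-, -0.94, 95% interval -1.60 to -0.28, limma adjusted p = 0.132) and MT1G 204745_x_at (-0.66, 95% interval -1.18 to -0.15, limma adjusted p = 0.169). For MT2A the difference was -0.23 (95% interval -0.84 to 0.38) and for MT1X 208581_x_at it was -0.22 (95% interval -0.91 to 0.46). A fall in A549 that was not called in 143BTK- is therefore not shown to be particular to A549.

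**Figure D3:**
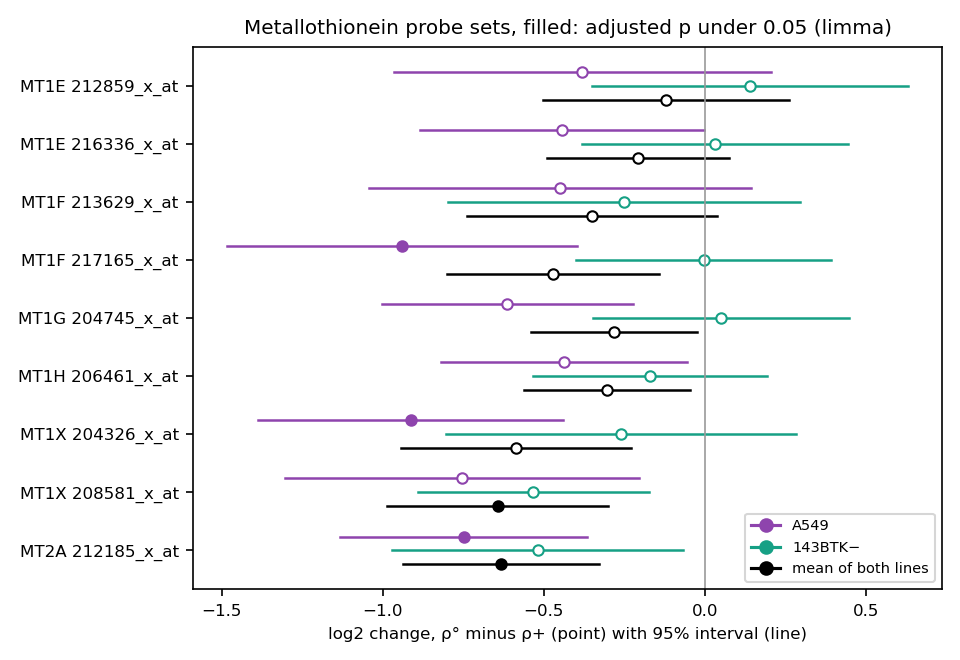
Log2 change of each metallothionein probe set, ρ° minus ρ+ (horizontal axis), with its 95% interval from limma, for A549, for 143BTK- and for the mean of both lines. Filled points passed an adjusted p under 0.05. All A549 points lie below 0 and 3 are filled, no 143BTK- point is filled, and MT2A and MT1X 208581_x_at are filled in the mean.

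The members share chromosome 16, and in A549 the rest of that chromosome was lower too. Its 507 other probe sets had a median log2 change of -0.31 and 74.0% of them were negative, against a median of 0.01 and 49.0% on all other chromosomes. In 143BTK- the median was -0.02 over 534 probe sets (51.5% negative), close to that of the other chromosomes. Of the 507 in A549, 12.0% were as low as MT1F 217165_x_at, 13.2% as low as MT1X 204326_x_at and 20.3% as low as MT2A. The share was 43.8% for MT1E 212859_x_at, so the members lay below the median of their chromosome but inside its spread. After subtraction of the median of the whole chromosome, metallothioneins included (-0.32 in A549), from each change, the members' median in A549 was -0.29 and 0 of the 9 passed the adjusted threshold, in A549 or in the mean of both lines. MT2A then stood at -0.43 and MT1F 217165_x_at at -0.62 in A549, while MT2A and MT1X 208581_x_at remained at -0.50 and -0.52 in 143BTK-.

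The genes next to the cluster did not move together in A549. Of those on the near side, OGFOD1, a prolyl hydroxylase of a ribosomal protein, had a log2 change of -0.43. NUDT21, a subunit of the mRNA 3′ cleavage machinery, had 0.36 and 0.21 in its 2 probe sets, and GNAO1, a G protein subunit, had -0.05. On the far side NUP93, a nuclear pore protein, had -0.95 (limma adjusted p = 0.0564), SLC12A3, a salt transporter, had 0.02 and HERPUD1, a protein of endoplasmic reticulum stress, had -0.14. None of these passed the adjusted threshold. In 143BTK- the same genes ranged between -0.59 for HERPUD1 and 0.55 for GNAO1. None was called there, where 0% of all probe sets passed.

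**Figure D4:**
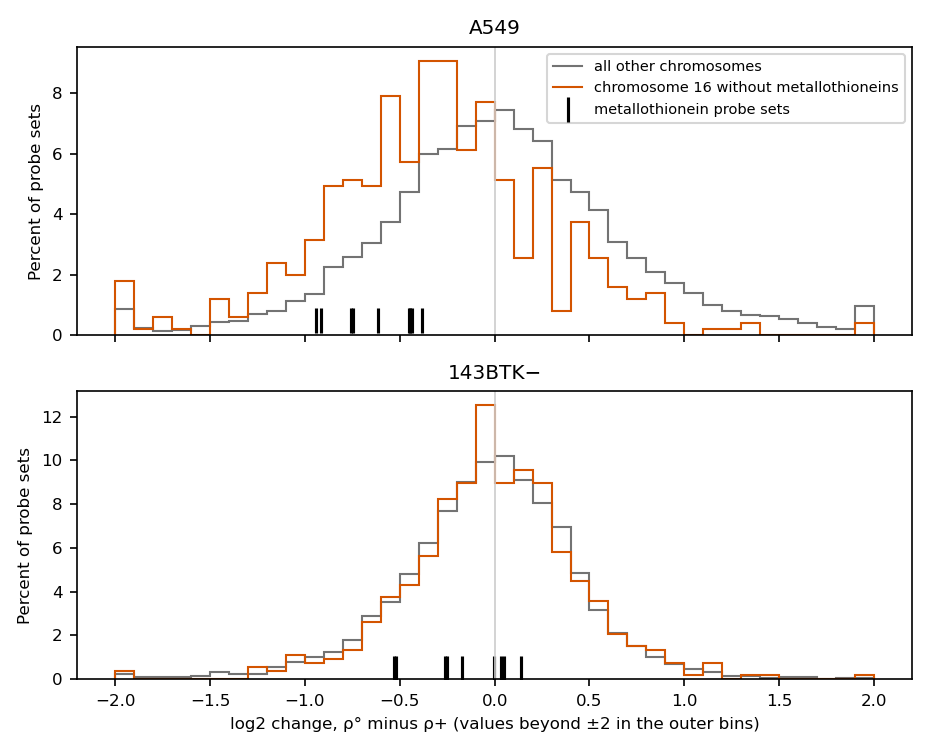
Distribution of log2 changes, ρ° minus ρ+ (horizontal axis), in percent of probe sets (vertical axis), for chromosome 16 without metallothioneins and for all other chromosomes, in A549 and in 143BTK-. Black ticks are the 9 metallothionein probe sets. In A549 the curve of chromosome 16 is shifted to a median of -0.31 with the ticks below that median, and in 143BTK- the curves overlie each other.

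The other metallothioneins on the array were not called in either line, and in 143BTK- 0% of all probe sets were called. MT1HL1 211456_x_at, a gene like MT1H that lies on chromosome 1, had signals of 831, 1064 and 1286 in A549 ρ° cells, against 1902, 1186 and 1475 in A549 ρ+ cells. Its log2 change was -0.52 (limma adjusted p = 0.152), with ρ° C above ρ+ B. In 143BTK- it was -0.15. The name of this set also ends in _x_at, so its signal may hold parts of relatives on chromosome 16. MT3, the member known from brain, was dim, with mean signals of 33.0 in ρ° and 45.7 in ρ+ A549 cells (log2 change -0.49, limma adjusted p = 0.328) and a change of 0.04 in 143BTK-. MT1M passed the filter only in 143BTK-, where its change was 0.11, and MT4, known from squamous epithelium, passed it in neither line.

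The levels of the members differed between the parental lines. The deposited signals were normalised in each line separately, so for this comparison alone all 12 arrays were brought to 1 distribution. On that scale MT1E 212859_x_at averaged 2532 ± 88.8 in 143BTK- ρ+ cells and 135 ± 41.9 in A549 ρ+ cells (SD, n = 3 arrays each), an 18.7-fold higher signal. MT1E 216336_x_at averaged 1386 ± 199.6 in 143BTK- ρ+ cells and 214 ± 6.25 in A549 ρ+ cells, 6.49-fold higher. For the other members the ratio lay between 0.90 for MT1X 204326_x_at and 2.72 for MT1G 204745_x_at. MT2A averaged 7690 ± 1303 in 143BTK- ρ+ cells and 4083 ± 217 in A549 ρ+ cells, a ratio of 1.88. MT1E thus had the widest gap between the parental lines among the members.

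Across the 12 arrays, with each line centred on its own mean, MT1X 208581_x_at followed MT2A most closely within the family (Pearson r 0.90), then MT1H (0.88) and MT1HL1 (0.86). With each of the 4 groups centred instead, so that only the scatter between replicate arrays was left, r was 0.74 for MT1X 208581_x_at, 0.78 for MT1H and 0.90 for MT1HL1. Replicate arrays thus varied together in these sets, which may share probes. MT1G, with 0.56 and then 0.07, and MT1X 204326_x_at, with 0.55 and then -0.19, followed MT2A less closely between replicates. These are descriptions over 12 arrays of 4 groups, which carry the difference between ρ° and ρ+ cells as well.

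Outside the family, the genes whose line-centred log2 signal was most like that of MT2A were MGAT5, a glycosyltransferase of N-glycans (Pearson r 0.95), SACM1L, a phosphoinositide phosphatase (0.94), PGAP4, a glycosyltransferase of GPI anchors (0.93), RASSF2, a Ras-association protein (0.93) and IFT25, a protein of intraflagellar transport (0.93). The most opposite were ATP5F1D (-0.95), TMEM231 (-0.94), PCGF2 (-0.92), TMED1 (-0.92) and ATP5MC2 (-0.91). ATP5F1D and ATP5MC2 encode subunits of the mitochondrial ATP synthase. Both rose in A549 ρ° cells, ATP5F1D by a log2 change of 0.72 (limma adjusted p = 0.0356) and ATP5MC2 by 0.87 (limma adjusted p = 0.0151). Of the other extremes TMED1 rose in A549 (1.03, limma adjusted p = 0.0311) and MGAT5 fell (-0.91, limma adjusted p = 0.0317). These genes were picked as the extremes of all probe sets, over the same 12 arrays.

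Genes that move zinc showed no common direction. Of 10 listed zinc exporters 3 were measured. SLC30A1, the exporter that MTF1 induces together with metallothioneins, had signals of 163, 156 and 112 in A549 ρ° cells, against 188, 280 and 133 in A549 ρ+ cells. The groups overlapped and its log2 change was -0.43 in A549, -0.35 in 143BTK- and -0.39 in the mean, none of which passed. SLC30A9, a mitochondrial zinc transporter, had signals of 151, 169 and 138 in A549 ρ° cells, against 70.8, 70.0 and 114 in A549 ρ+ cells. In 143BTK- it had 218, 231 and 249 in ρ° cells, against 112.5, 130.5 and 143.6 in ρ+ cells. Its groups were separate in each line, the ρ° cells being higher. The share of all probe sets with such groups was not counted. SLC30A9 rose in the mean change (0.87, SE 0.17, limma adjusted p = 0.0146), 1 of the 3 measured exporters (background 1.97% called higher). Where a gene had several probe sets, the lists were counted by the brightest over the 12 arrays of both lines, and other sets that were called are named. Of 14 listed importers 7 were measured in A549, and 2 fell (background 5.2% called lower). SLC39A8, a zinc and manganese importer, had signals of 57.3, 65.1 and 59.1 in A549 ρ° cells, against 111.5, 140.6 and 208.5 in A549 ρ+ cells (log2 change -1.30, limma adjusted p = 0.0143). It also fell in the mean of both lines (-0.89, limma adjusted p = 0.0345), while a second probe set had -0.23 in A549 and was not called. SLC39A14, an importer of zinc and iron, had 251, 309 and 275 in A549 ρ° cells, against 492, 370 and 495 in A549 ρ+ cells (log2 change -0.69, limma adjusted p = 0.0468). SLC39A6, a further zinc importer, had 0.14 in the counted set, while its set 202089_s_at rose in A549 (0.94, limma adjusted p = 0.0112). The median of the 7 importers was -0.03, and 0 of 6 were called in 143BTK-. Of 13 listed genes of copper handling 9 were measured, and 0 were called in either line. In 143BTK- 0% of all probe sets passed, so the counts of 0 there say nothing about these lists.

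MTF1 itself was dim, with signals of 60.7, 81.8 and 67.2 in A549 ρ° cells, against 79.6, 90.5 and 49.6 in A549 ρ+ cells. The groups overlapped, with a log2 change of -0.03. In 143BTK- the MTF1 signals were 93.1, 67.2 and 88.7 in ρ° cells, against 108.7, 110.2 and 123.7 in ρ+ cells. All ρ° arrays lay below all ρ+ arrays there (background 7.47%), with a change of -0.47 that was not called (limma adjusted p = 0.663). The second MTF1 probe set had -0.06 in A549 and -0.54 in 143BTK-. Of the 6 measured transcription factors known at metallothionein promoters 0 were called in A549 (background 5.2% lower and 5.66% higher). Of 7 in 143BTK- again 0 were called, as were 0% of all probe sets there. NR3C1, the glucocorticoid receptor, was counted by a set with 0.28 in A549. Of its 4 sets 1, 201866_s_at, rose in A549 (1.12, limma adjusted p = 0.0080) and in the mean of both lines (0.75, limma adjusted p = 0.0194).

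Other targets of the signals that induce metallothioneins were also counted. Of 8 measured glucocorticoid-induced genes 1 fell in A549 and 0 rose (background 5.2% lower and 5.66% higher). It was SGK1, a salt-regulating kinase, with signals of 12.1, 50.6 and 38.7 in ρ° cells and 100.1, 121.1 and 112.5 in ρ+ cells (log2 change -1.95, limma adjusted p = 0.0253), and the median of the list was -0.40. SCNN1A, a sodium channel subunit, had -0.44 in the counted set and fell in A549 by its set 203453_at (-1.78, limma adjusted p = 0.0021), while a further set had 0.76. Of 9 measured stress genes that metals induce, 1 fell in A549, HMOX1, and 1 rose, SLC7A11, against the same background. A count of 1 in a list this short says little about the list. HMOX1, the heme oxygenase, had 586, 597 and 773 in ρ° cells, against 2998, 2114 and 1019 in ρ+ cells (log2 change -1.53, limma adjusted p = 0.0175). SLC7A11, the cystine importer, had 560, 498 and 539 in ρ° cells, against 249, 285 and 370 in ρ+ cells (log2 change 0.84, limma adjusted p = 0.0237). The further 2 probe sets of SLC7A11 had 0.43 and 0.83 and were not called. NQO1, a quinone reductase, had -0.47 in the counted set and fell by 1 of its 3 sets, 201468_s_at (-0.77, limma adjusted p = 0.0467). In 143BTK- 0 of 9 genes of each list were called. There 0% of all probe sets passed, so these counts of 0 say nothing about the lists.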

How the data were processed

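Total RNA of the 12 samples was hybridised to Affymetrix human genome arrays. The authors computed MAS5 signal values and deposited them after quantile normalization over the 6 arrays of each line, so the deposited signal is linear and not comparable between lines. No count or depth stands behind a signal, and the number of arrays limits the precision. The 3 arrays of a group are described as biological replicates, and their RNA as extracted independently. Separate ethidium bromide treatments of the same line are not described. The p-values therefore reflect the spread between arrays, and not that between separately derived ρ° cells.

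Signals were taken to log2 with no offset. Low probe sets were removed from each line by mean log2 signal, leaving as many as the authors had kept by detection calls, which are not used here: 13096 in A549 and 14012 in 143BTK-, of which 12139 were in both. The power law error model of the methods was fitted on arrays not used here and was replaced by limma. The lowest mean signal (geometric) kept was 19.1 in A549 and 12.6 in 143BTK-. Gene symbols came from the platform annotation, in which 19071 probe sets had 1 gene, 1043 several and 2169 none, and 19059 were matched to RefSeq. Each line was fitted on its own, and all 12 arrays together for the mean and the difference, with limma 3.58.1 (R 4.3.3, moderated by mean intensity) and Benjamini-Hochberg adjustment over all probe sets kept. The fit was tested on simulated data. Single probe sets were also tested by exact permutation. Motifs and figures were made with Python 3.11.15 and matplotlib 3.10.9.

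The text names every member probe set, other metallothioneins, MTF1, SLC30A1, listed genes that passed the threshold, 3 neighbours on each side of the cluster, and the 5 genes most and least like MT2A. KRT and other markers check the cell types. The members and lists were chosen with earlier results of these data known. Alternatives were other normalizations, offsets and filters, a fit without the intensity trend, a block for the replicate letter, left-out arrays, centring on the chromosome median, and other choices of probe sets.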

Additional observations from a re-analysis of the deposited data

How the results depend on the processing

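With 3 arrays a group the counts of calls changed with the setting, while all 9 metallothionein probe sets stayed negative in A549 in the 14 or 15 alternatives run for each. In A549 the number called, 3, was 0 without the intensity trend and 0 with changes centred on the chromosome median (median change then -0.29), and varied between 0 and 4 with 1 array left out. MT1G 204745_x_at was called in 5 alternatives (lowest limma adjusted p = 0.0337) and MT1X 208581_x_at in 1. Of the 3 called, MT1F 217165_x_at lost its call in 8 of 15 alternatives (highest limma adjusted p = 0.142). MT2A and MT1X 204326_x_at each lost theirs in 6 of 15 (highest limma adjusted p = 0.156 and 0.113). Of the 2 called in the mean change, MT1X 208581_x_at lost its call in 14 of 22 alternatives and MT2A in 11 of 22. MT1X 204326_x_at was called there in 2. In the mean change the number called, 2, was 0 with no filter (10 probe sets), 0 without the intensity trend, 0 without both parental C arrays, 0 with changes centred on the chromosome median, 1 with the replicate block, and varied between 0 and 3 with 1 array left out.

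The labels do not say whether arrays of the same letter belong together. Arrays of the same letter deviated from their group means with r between 0.05 and 0.11 in A549, where each ρ° array correlated best with its own letter. In 143BTK- r was between -0.11 and 0.36, and that held for ρ° A alone. Arrays of different letters reached 0.39 (ρ° B with ρ+ C) and -0.47 (ρ° A with ρ+ C) in 143BTK-, which the main fits did not model. The replicate block left 3 calls in A549 and 0 in 143BTK-.

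The directions that reversed were all of uncalled values. In 143BTK- with 1 array left out, MT1G 204745_x_at varied between -0.0587 and 0.15, MT1E 212859_x_at varied between -0.088 and 0.37, MT1E 216336_x_at varied between -0.0711 and 0.16 and MT1F 217165_x_at varied between -0.0982 and 0.044. Centred on the chromosome median, MT1F 217165_x_at became 0.0114 in 143BTK-, MT1E 212859_x_at 0.0558 in the mean change, and the differences between the lines became 0.0681 for MT1H, 0.11 for MT1X 208581_x_at, 0.11 for MT2A and 0.14 for MT1F 213629_x_at. That of MT1F 213629_x_at was 0.0823 without both parental C arrays, and with 1 array left out the difference of MT1X 208581_x_at varied between -0.45 and 0.0153 and that of MT1F 213629_x_at varied between -0.35 and 0.0112. The causes were not tested. Leaving out probe sets with the _x_at mark left no member that passed the filter, so that alternative could not be run. Probes that may be shared between relatives limit what can be assigned to 1 gene.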
